A study of Rattus norvegicus with 9 samples.

Results

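Dorsal root ganglia of diabetic rats given FK1706 were compared with ganglia of normal rats given vehicle, to describe which transcripts still stood apart from normal under the drug. The arrays were chosen by their labels alone. They are the 3 arrays of STZ-injected, FK1706-treated rats and the 3 arrays of normal, vehicle-treated rats, 6 of the 9 arrays of the series. All rats were Sprague-Dawley. The diabetic rats had been injected with streptozotocin (STZ), which destroys the beta cells that secrete insulin. FK1706 is an immunophilin ligand, that is, a compound that binds proteins of the FK506-binding family. Lumbar ganglia were collected 1, 2 or 3 weeks into dosing, and each array holds equal amounts of RNA from 5 rats, so each group has 1 pool a week. The other 3 arrays, from STZ-injected rats given vehicle, share the normal controls and stand beside the results as a reference. No normal rats received FK1706. The sources used here give neither the dose of the drug nor the ages of the rats nor the interval between STZ and dosing.

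A dorsal root ganglion holds the cell bodies of sensory neurons, each wrapped in satellite glia, together with myelinating and non-myelinating Schwann cells, fibroblasts, vessels and a connective tissue capsule. High blood glucose acts on all of them. It drives glucose-sensing transcription in most cell types, and the loss of insulin lowers insulin-dependent lipid synthesis and insulin-like growth factor 1. Collagens and laminins form the matrix around the axons and the ganglion.

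Values below are log2 signals after the arrays were brought to 1 scale, and differences are FK1706 minus normal unless another pair is named. Before scaling, the trimmed mean signal of the arrays ran from 361 to 534, and the median gene lay 0.17 lower on the log2 scale in the FK1706 arrays than in the normal arrays. The cell types that define the labelled tissue were present by their markers, since 14 of 15 measured sensory neuron genes, 10 of 11 satellite glia genes and 14 of 15 myelinating Schwann cell genes passed the filter on low signal. Of 10411 genes with a probe set, 6989 passed the filter on low signal and were tested with limma. Any pair of arrays correlated across probe sets with r from 0.969 to 0.981, and precision is limited by having 3 arrays a group. Each group had 1 pool a week, so the p-values rest on how unevenly the differences among all 3 groups ran over the weeks. That unevenness holds spread between pools, which may in part be technical, and any true change of a difference with week. These cannot be told apart.

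A single gene, Txnip, passed at an adjusted p under 0.05 (limma), which is 0.0143% of the 6989 tested, and 0 genes passed lower. At an unadjusted p under 0.05 there were 573 genes (8.20%), 257 higher (3.68%) and 316 lower (4.52%). Without a model, 2 genes (0.0286%) were at least 1.5-fold lower in each of the 3 weeks, Ttc9b and Col10a1, and 0 were at least 1.5-fold higher. Both had low signal, at the 14.5th and 2.83rd percentile of mean signal among the genes tested. The filter used the mean over all 9 arrays. Their FK1706 means alone, 7.28 and 7.17, would not pass it, so both were tested through their higher pools. In all 3 weeks 936 genes (13.4%) were higher and 988 (14.1%) lower. The FK1706 and normal pools did not overlap for 389 genes above normal (5.57%) and 424 genes below it (6.07%).

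Txnip encodes thioredoxin-interacting protein, which binds thioredoxin, restrains glucose uptake and is induced by glucose. Its signal in weeks 1, 2 and 3 was 10.70, 10.93 and 10.90 in normal pools, 11.42, 11.50 and 11.37 in FK1706 pools and 11.39, 11.53 and 11.60 in STZ vehicle pools. Every diabetic pool, treated or not, lay above every normal pool. Txnip was 1.51-fold higher under FK1706 than in normal ganglia (log2 difference 0.59, SE 0.072, 95% interval 0.43 to 0.75, limma adjusted p = 0.0364), with 0.73, 0.58 and 0.47 in weeks 1, 2 and 3. The FK1706 minus STZ vehicle difference was -0.08 (95% interval -0.24 to 0.08, limma unadjusted p = 0.32). Txnip passed in 1 of the 9 fits that leave out 1 array. The limma adjusted p was 0.0709 without the normal pool of week 1, 0.0939 without that of week 2 and 0.201 without that of week 3. It was 0.197, 0.209 and 0.0708 without the FK1706 pool of weeks 1, 2 and 3, and 0.0535, 0.0631 and 0.0377 without the STZ vehicle pool of those weeks. Over all settings tried, the Txnip difference ran from 0.43 to 0.66.

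Other genes of glucose entry, the polyol pathway and the thioredoxin system did not pass. Of 14 tested, Txnip included, 3 were higher and 2 lower in all 3 weeks, where 13.4% and 14.1% of all genes were. Their median difference was 0.00, as for all genes. Akr1b1, the aldose reductase that turns glucose into sorbitol, was 12.05, 11.87 and 11.97 in normal pools and 11.73, 11.57 and 11.84 in FK1706 pools. Every FK1706 pool lay below every normal pool, by a mean of -0.25 (SE 0.066, limma adjusted p = 0.293). Taldo1, transaldolase of the pentose phosphate pathway, ran the other way, with 10.17, 10.31 and 10.16 in normal pools and 10.57, 10.77 and 10.50 in FK1706 pools (0.40, SE 0.098, limma adjusted p = 0.293). Txn1, the thioredoxin that Txnip binds, differed by -0.16 (SE 0.060, limma adjusted p = 0.54).

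**Figure D1:**
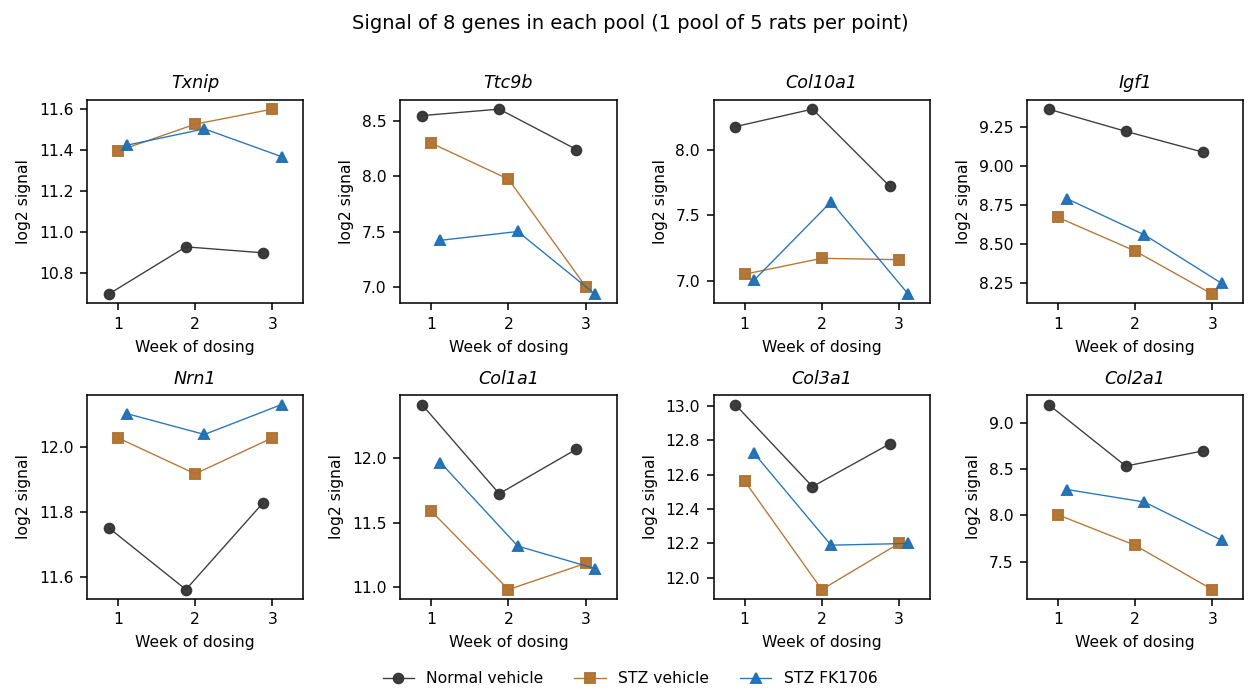
Log2 signal (vertical axes) of 8 genes against week of dosing (horizontal axes), 1 pool of 5 rats per point, for normal vehicle (circles), STZ vehicle (squares) and STZ FK1706 (triangles); lines join the weeks of a group. The FK1706 pools lie above every normal pool for Txnip and Nrn1 and below every normal pool for Ttc9b, Col10a1, Igf1 and Col2a1, while for Col1a1 and Col3a1 they are lower within each week only.

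The 4 genes next to Txnip had a limma adjusted p of 0.0833 and did not pass. They were Ttc9b, Igf1, Col1a1 and Nrn1. Ttc9b encodes a protein with tetratricopeptide repeats. Its signal was 8.55, 8.61 and 8.24 in normal pools, 7.42, 7.50 and 6.93 in FK1706 pools and 8.30, 7.97 and 7.0 in STZ vehicle pools. The FK1706 pools lay below all normal pools, and the STZ vehicle pools were near normal in week 1 and near the FK1706 pools in week 3. The difference from normal was -1.18 (2.27-fold lower, SE 0.178), with -1.13, -1.11 and -1.31 in the 3 weeks. Against STZ vehicle it was -0.47 (95% interval -0.87 to -0.08, limma unadjusted p = 0.0222), 1 of 218 genes (3.12%) under 0.05 in that comparison, where 0 of 6989 passed after adjustment.

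Nrn1 encodes neuritin, a membrane-anchored protein that promotes neurite growth, and was singled out after its values were seen. It was 11.75, 11.56 and 11.83 in normal pools, 12.10, 12.04 and 12.13 in FK1706 pools and 12.03, 11.92 and 12.03 in STZ vehicle pools. Both diabetic groups lay above all normal pools. The FK1706 difference from normal was 0.38 (1.3-fold, SE 0.060), and the STZ vehicle difference was 0.28.

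Igf1 encodes an insulin-like growth factor that supports neurons and Schwann cells. It was 9.36, 9.22 and 9.09 in normal pools and 8.79, 8.56 and 8.25 in FK1706 pools, next to 8.67, 8.46 and 8.18 in STZ vehicle pools. The normal and FK1706 pools did not overlap, and the gap was -0.57, -0.66 and -0.84 in weeks 1, 2 and 3 (mean -0.69, 1.61-fold lower, SE 0.10). The FK1706 minus STZ vehicle difference was 0.10 (95% interval -0.12 to 0.32). A second Igf1 probe set gave -0.55, with 0.07 in week 1 and -0.81 and -0.90 in weeks 2 and 3. Among 18 tested genes of IGF and insulin signalling, 0 passed (median 0.01). Of the 18, 6 were higher and 2 lower in all weeks, where 13.4% and 14.1% of all genes were. The 2 receptors lay on the other side from the ligand. Igf1r was 7.88, 7.79 and 8.03 in normal pools and 8.11, 8.46 and 8.38 in FK1706 pools (0.42, SE 0.126, limma adjusted p = 0.377). Insr, the insulin receptor, was 7.24, 7.47 and 7.40 against 7.57, 7.74 and 7.78 (0.33, SE 0.139, limma adjusted p = 0.587). For both receptors, named by their moderated t in this same comparison, every FK1706 pool exceeded every normal pool. The binding protein gene Igfbp5 differed by -0.27 (SE 0.109, limma adjusted p = 0.587). A second Igfbp5 probe set gave -0.34, and another, below the filter on low signal, gave -1.54, with -0.52, -2.08 and -2.02 by week.

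The genes of connective tissue were below normal as a group in counts, though 0 passed. Fibroblast and matrix, basement membrane, and cartilage and bone lists together held 63 tested genes of 78 measured. Of these, 28 were lower and 2 higher in every week, where 14.1% and 13.4% of all genes were. At an unadjusted p under 0.05 there were 20 lower and 0 higher, where 4.52% and 3.68% of all genes were. The FK1706 pools lay below every normal pool for 13 of the 63, and for 6.07% of all genes. The median difference of the 63 genes was -0.16, with -0.17, -0.17 and -0.27 in weeks 1, 2 and 3, and that of all genes was 0.00. Their median FK1706 minus STZ vehicle difference was 0.06. On the deposited scale 106 genes passed, 1 higher and 105 lower, Col1a1, Col1a2, Col3a1, Col2a1, Timp1, Igf1 and Ttc9b among the lower. The fibroblast and matrix list alone had a median of -0.14, and of -0.32 on the deposited scale, where all genes lay at -0.17.

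Col1a1 and Col1a2 encode the chains of type I collagen. Col1a1 was 12.42, 11.73 and 12.07 in normal pools, 11.97, 11.32 and 11.15 in FK1706 pools and 11.59, 10.98 and 11.19 in STZ vehicle pools. Within each week the order was normal, FK1706 and STZ vehicle in weeks 1 and 2, with the diabetic groups close together in week 3. The normal and FK1706 pools overlapped across weeks. The difference from normal was -0.59 (1.51-fold lower, SE 0.095), with -0.45, -0.41 and -0.93 by week, and a second probe set gave -0.80. The FK1706 minus STZ vehicle difference was 0.22 (95% interval 0.02 to 0.43, limma unadjusted p = 0.0371, adjusted p = 0.999).

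Col1a2 was 12.99, 12.29 and 12.63 in normal pools and 12.31, 12.10 and 12.04 in FK1706 pools, which overlapped across weeks (-0.67, -0.19 and -0.59 by week). Its mean difference was -0.48 (SE 0.082, limma adjusted p = 0.103), and a second probe set gave -0.44, with 0.01 in week 2. Col3a1, the type III collagen that forms fibres with type I, was 13.01, 12.53 and 12.78 against 12.73, 12.19 and 12.20 (-0.40, SE 0.067, limma adjusted p = 0.103). Timp1, an inhibitor of matrix metalloproteinases, was 10.72, 10.30 and 10.69 against 10.26, 9.98 and 10.15 (-0.44, SE 0.083, limma adjusted p = 0.169). Every FK1706 pool of Timp1 lay below every normal pool. Col6a1, a chain of the beaded type VI collagen, was 10.36, 10.25 and 10.22 against 10.20, 9.68 and 9.51 (-0.48, SE 0.105).

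Col1a1, Col1a2, Col3a1, Col2a1, Igf1 and Timp1 are the 6 genes that passed lower in STZ vehicle against normal, where 7 of 6989 (0.100%) passed and 6 of them (0.0858%) were lower. Under FK1706 none of the 6 passed, and each was lower in all 3 weeks by its brightest probe set. A second probe set was also lower in all 3 weeks for Col1a1. Those of Col1a2 (0.01 in week 2), Igf1 (0.07 in week 1) and Col2a1 (0.16, -0.27 and 0.31 by week) were not. The comparison of STZ vehicle with normal shares the normal pools. The direct test of FK1706 against STZ vehicle gave unadjusted p of 0.0371 for Col1a1, 0.596 for Col1a2, 0.0607 for Col3a1, 0.0137 for Col2a1, 0.354 for Igf1 and 0.212 for Timp1 (limma). None passed after adjustment, and the 6 differences ran from 0.04 for Col1a2 to 0.42 for Col2a1. The 6 were chosen for low STZ vehicle pools, and the direct test uses those pools again. That choice alone favours differences above 0 and small p-values, so the shared sign is no separate support.

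Cartilage and bone genes had 9 of 20 measured genes above the filter. Of the 9, 6 were lower in every week and 6 had FK1706 pools below all normal pools (median -0.26). Over all genes those shares were 14.1% and 6.07%. The median was the value of Sparc, which is in all 3 connective tissue lists and is among both counts. A second Sparc probe set gave -0.08, with 0.09 in week 2. Col10a1, the collagen of hypertrophic cartilage, was 8.17, 8.31 and 7.72 in normal pools and 7.0, 7.60 and 6.90 in FK1706 pools, near the 7.05, 7.17 and 7.16 of STZ vehicle pools. It was 1.87-fold lower (-0.90, SE 0.175, limma adjusted p = 0.174). Col2a1, the collagen of cartilage, was 9.19, 8.53 and 8.69 against 8.28, 8.14 and 7.73 (-0.75, SE 0.144, limma adjusted p = 0.174). A second Col2a1 probe set gave 0.06, so the probe sets disagreed. Cnmd, chondromodulin of cartilage and tendon, was 10.02, 9.89 and 9.74 against 9.55, 9.12 and 9.47 (-0.50, SE 0.111, limma adjusted p = 0.254). The summed linear signal of the 20 cartilage and bone genes was 13909 to 15320 in normal pools and 12699 to 13908 in FK1706 pools, ranges that all but touch. For fibroblast and matrix genes it was 67025 to 82914 and 60656 to 70835. For basement membrane genes it was 15036 to 16813 and 13189 to 15150. The sums of both these lists overlapped between the groups. The part of cartilage or bone tissue in the matrix differences was not tested. In pooled tissue, fewer cells of a type and less RNA per cell cannot be told apart.

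Basement membrane genes, which encode the sheet under endothelium and around Schwann cells, had 14 tested. Of these, 6 were lower and 0 higher in every week (median -0.17), where 14.1% and 13.4% of all genes were. Lamb2, the laminin beta-2 chain, was 9.52, 9.63 and 9.55 in normal pools and 9.11, 9.16 and 9.04 in FK1706 pools. The 2 groups were tight and did not overlap, with a difference of -0.46 (SE 0.095, limma adjusted p = 0.227). The STZ vehicle pools were 9.34, 9.11 and 9.18. Nid2, a nidogen that links laminin to collagen IV, differed by -0.35 (SE 0.109, limma adjusted p = 0.426), and Hspg2, perlecan, by -0.40 with -0.06, -0.82 and -0.30 by week.

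**Figure D2:**
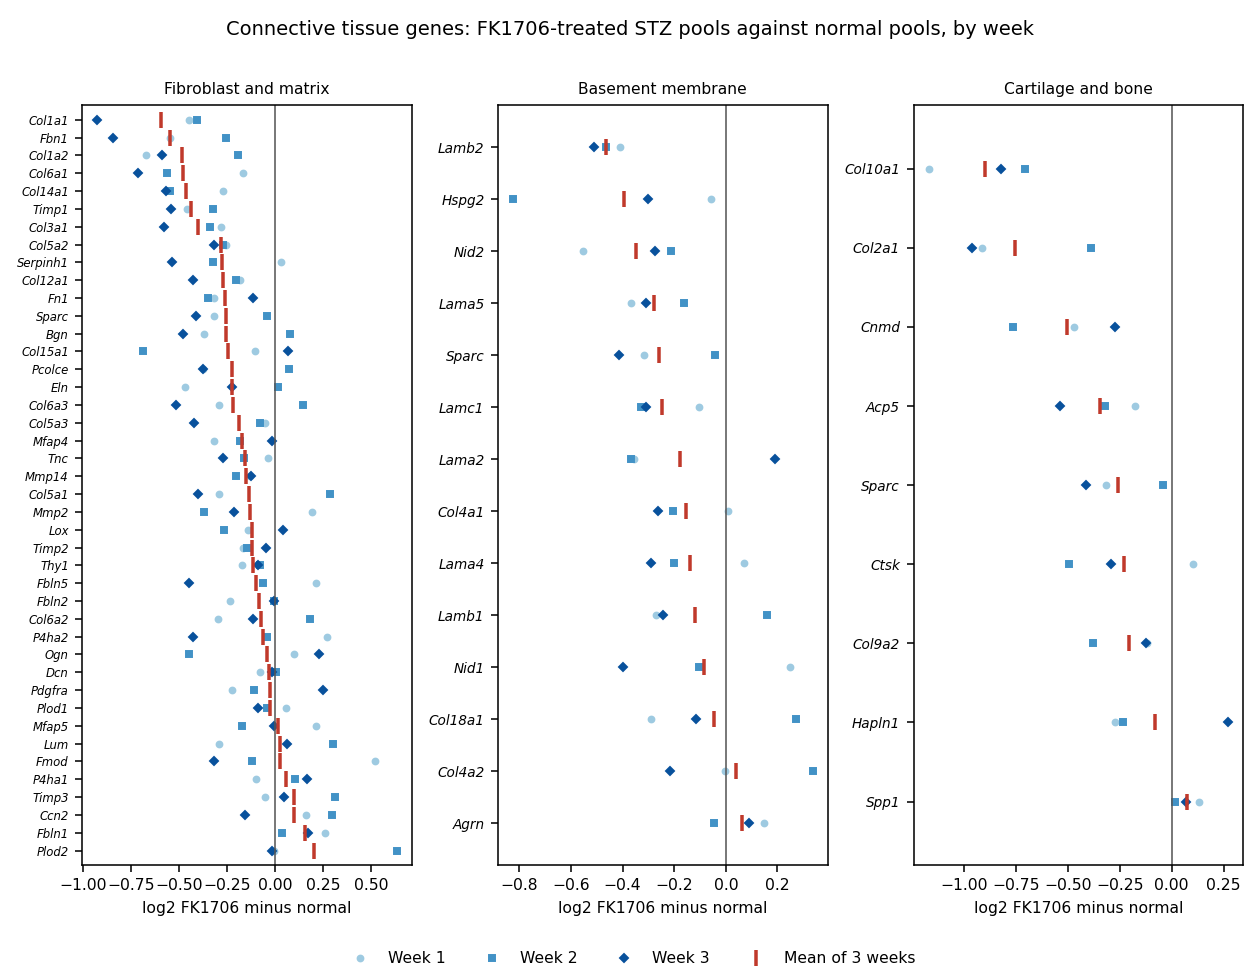
Log2 difference of FK1706 minus normal (horizontal axes) for each tested gene of 3 connective tissue lists (rows), with the 3 weeks as blue points and their mean as a red bar; Sparc stands in all 3 lists. Most bars lie left of 0, with Col10a1 at -0.90 and Col1a1 at -0.59, and week 3 is the lowest point for Col1a1, Col6a1 and Col3a1.

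Promoters of Col1a2 and Col10a1, from RefSeq on GRCr8, are given because both genes were lower in every week by their brightest probe sets. Each sequence covers 250 bases before and 50 after the start, and capitals mark TATAA, the letters of a TATA box, searched on both strands and found here on the forward strand. TATAA stands in 26.2% of 33469 promoters. In Col1a2 (chr4:33518307-33518606, plus strand) it lies at -170, and in Col10a1 (chr20:39737286-39737585, plus strand) at -193 and -31.
Col1a2: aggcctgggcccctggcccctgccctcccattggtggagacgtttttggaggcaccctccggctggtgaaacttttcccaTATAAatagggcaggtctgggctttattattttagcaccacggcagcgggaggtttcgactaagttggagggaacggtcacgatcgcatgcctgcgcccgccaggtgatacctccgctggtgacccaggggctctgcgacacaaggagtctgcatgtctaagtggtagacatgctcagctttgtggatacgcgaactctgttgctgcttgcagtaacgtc
Col10a1: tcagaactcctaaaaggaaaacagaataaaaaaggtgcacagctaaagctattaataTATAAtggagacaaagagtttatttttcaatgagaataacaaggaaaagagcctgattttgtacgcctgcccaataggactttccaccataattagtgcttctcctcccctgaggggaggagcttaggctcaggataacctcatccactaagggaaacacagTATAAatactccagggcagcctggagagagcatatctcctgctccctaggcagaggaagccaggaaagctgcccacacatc

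Lipid synthesis and myelin genes were also lower in counts, with 0 passing. Of 18 tested genes of fatty acid and myelin lipid synthesis, 8 were lower and 0 higher in every week, 8 were lower at an unadjusted p under 0.05, and 7 had FK1706 pools below all normal pools. Over all genes those shares were 14.1% lower and 13.4% higher in every week, 4.52% lower at an unadjusted p under 0.05 and 6.07% below all normal pools. The median of myelin lipid and fatty acid synthesis genes was -0.20, and it was -0.10 with no filter, -0.12 without the normal pool of week 3 and -0.13 without the FK1706 pool of week 2. Elovl6, which lengthens saturated fatty acids, was 9.98, 10.03 and 9.83 in normal pools, 9.64, 9.47 and 9.50 in FK1706 pools and 9.93, 9.76 and 9.59 in STZ vehicle pools. Its difference from normal was -0.41 (SE 0.088, limma adjusted p = 0.254), and against STZ vehicle it was -0.22 (95% interval -0.42 to -0.03, limma unadjusted p = 0.0287). Scd, the stearoyl-CoA desaturase, was 10.37, 10.54 and 10.33 against 10.24, 10.07 and 9.82 under FK1706 (-0.37, SE 0.095, limma adjusted p = 0.293). Dgat2, which makes triglyceride, was 8.97, 8.71 and 8.97 against 8.50, 8.35 and 8.29 (-0.50, SE 0.130). Me1, the malic enzyme that supplies NADPH, was -0.35 (SE 0.092) and -0.20 by a second probe set, and the desaturase Fads2 was -0.35 (SE 0.114). In each of these 5 genes every FK1706 pool lay below every normal pool. They were named for the largest absolute moderated t of the list in this same comparison, so that is no separate support. Fasn and Acaca, the enzymes that build palmitate, singled out after their values were seen, differed by -0.03 and -0.01.

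Of 14 tested genes of myelinating Schwann cells, 7 were lower and 1 higher in every week, where 14.1% and 13.4% of all genes were. The median of myelinating Schwann cell genes was -0.17, with -0.12, -0.07 and -0.28 by week. It was -0.11 without the normal pool of week 3 and -0.09 without week 3. Cnp, a myelin phosphodiesterase, was 11.31, 11.31 and 11.27 in normal pools and 11.22, 10.80 and 10.76 in FK1706 pools. It was close to normal in week 1 (-0.08) and lower in weeks 2 and 3 (-0.50 and -0.51), with a mean of -0.36 (SE 0.091, limma adjusted p = 0.293). The STZ vehicle pools were 11.21, 10.81 and 10.80. Mal, a proteolipid of compact myelin, was 11.23, 11.07 and 11.17 against 10.96, 10.73 and 10.98 (-0.27, SE 0.066, limma adjusted p = 0.293). Prx, periaxin, a protein of myelinating Schwann cells, was -0.20 (SE 0.079). The summed linear signal of the list was 43790 to 45956 in normal pools and 39945 to 42852 in FK1706 pools, which do not overlap. Non-myelinating Schwann cell genes had a median of -0.03.

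**Figure D3:**
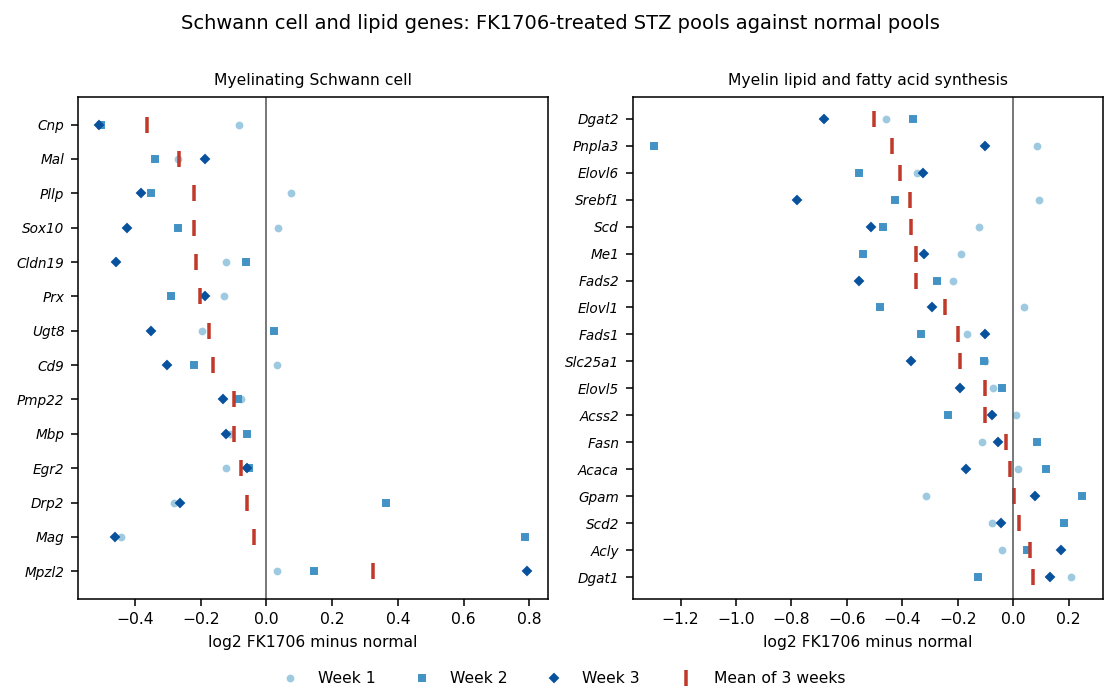
Log2 difference of FK1706 minus normal (horizontal axes) for 14 myelinating Schwann cell genes and 18 lipid synthesis genes (rows), with the 3 weeks as blue points and their mean as a red bar. Cnp, Mal, Elovl6, Scd, Dgat2 and Me1 lie left of 0 in every week, while Fasn and Acaca sit near 0.

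The medians of neuronal gene lists lay near the background, though some lists held a larger share of genes above normal than all genes did. Sensory neuron genes had a median of 0.03 over 14 tested and a range of -0.12 to 0.19, and their summed signal was 80707 to 82632 in normal pools and 81469 to 83719 in FK1706 pools. Satellite glia genes had a median of -0.02 over 10 tested. Of 31 neurofilament, tubulin and motor genes, 24 had a difference above 0, as did 3484 of all 6989 genes tested. The median of the 31 was 0.06, and -0.09 on the deposited scale, where all genes lay at -0.17. Vesicle release had 20 tested genes (median 0.05), of which 6 were higher and 2 lower in every week. The shares of all genes were 13.4% and 14.1%. At an unadjusted p under 0.05, 5 of the 20 were higher and 1 lower, where 3.68% and 4.52% of all genes were, and 0 passed. Snap25, a core of the vesicle fusion machinery, was 12.81, 12.81 and 12.86 in normal pools and 12.92, 13.03 and 12.96 in FK1706 pools (0.15, SE 0.052, limma adjusted p = 0.519), and 0.02 on the deposited scale. Stx1a, its partner syntaxin, was 7.98, 7.98 and 7.84 against 8.33, 8.51 and 8.12 (0.39, SE 0.128, limma adjusted p = 0.466). Syn2, a synapsin of vesicle pools, ran the other way at -0.22 (SE 0.081). Mapt, the tau gene, was 0.18 by its brightest probe set and -0.04 by each of 2 others. Stmn2, a microtubule regulator of growing axons, was 0.15 by one probe set and -0.06 by another.

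Of 13 tested neuropeptide genes, 3 were higher and 2 lower in every week (median 0.00), where 13.4% and 14.1% of all genes were. Chgb, chromogranin B of secretory granules, was 10.08, 9.96 and 10.26 in normal pools, 10.39, 10.32 and 10.80 in FK1706 pools and 10.16, 10.23 and 10.21 in STZ vehicle pools. The FK1706 pools were the highest of the 3 groups in every week. The difference was 0.41 from normal (SE 0.097, limma adjusted p = 0.293) and 0.30 from STZ vehicle (95% interval 0.09 to 0.52, limma unadjusted p = 0.00904, adjusted p = 0.999). Tac1, the precursor of substance P, was 11.15, 11.28 and 11.22 in normal pools and 10.93, 11.11 and 11.12 in FK1706 pools, with STZ vehicle pools at 11.20, 11.28 and 11.19. It differed from normal by -0.16 (SE 0.066, limma adjusted p = 0.587). Gal, galanin, which is induced by nerve injury, was 8.16, 7.94 and 7.99 in normal pools and 6.86, 7.99 and 7.64 in FK1706 pools, with a mean of -0.53 (SE 0.277) and -1.30, 0.05 and -0.35 by week.

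FK1706 binds FK506-binding proteins, so these and the calcineurin pathway were followed. Of 25 tested genes, 0 passed (median -0.03). In every week 3 were higher and 4 lower, where 13.4% and 14.1% of all genes were. Fkbp1a, which encodes FKBP12, was 12.03, 12.15 and 12.08 in normal pools and 12.02, 12.08 and 12.10 in FK1706 pools, a difference of -0.02 (95% interval -0.15 to 0.12). Its 2 other probe sets gave -0.13, with -0.48 in week 1, and -0.07. Fkbp4, which encodes FKBP52, a co-chaperone of steroid receptors, was 10.62, 11.19 and 10.91 against 10.62, 10.63 and 10.46 (-0.34, SE 0.130, limma adjusted p = 0.553). The week 1 pools of Fkbp4 were equal, and the lower values came in weeks 2 and 3. Rcan1, a calcineurin inhibitor induced by calcineurin signalling, was 9.96, 9.87 and 9.38 against 9.31, 9.53 and 9.23 (-0.38, SE 0.110, limma adjusted p = 0.353), with STZ vehicle at 9.56, 9.50 and 9.39. Nfatc4, a transcription factor that calcineurin activates, was 0.37 (SE 0.153, limma adjusted p = 0.587).

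Clock genes had 10 tested, of which 2 were higher and 3 lower in every week, where 13.4% and 14.1% of all genes were. The median of circadian clock genes was -0.10, and its sign turned to 0.07 without the normal pool of week 1 and 0.02 without week 1. Bmal1, the activator of the clock, was 7.33, 7.41 and 6.98 in normal pools and 7.97, 7.85 and 7.89 in FK1706 pools. The groups did not overlap, and the difference was 0.66 (1.58-fold, SE 0.162, limma adjusted p = 0.293). Nr1d1, a repressor of Bmal1, was 8.11, 7.07 and 7.97 in normal pools and 7.11, 7.07 and 7.16 in FK1706 pools (-0.60, SE 0.213, limma adjusted p = 0.515). Dbp, a clock output factor, was 8.61, 6.98 and 9.27 against 7.15, 6.88 and 7.31 (-1.17, SE 0.488, limma adjusted p = 0.587). In week 2 the normal pool of Nr1d1 and Dbp was as low as the FK1706 pool, so both differences came from weeks 1 and 3. Nr1d1 and Dbp had low signal, at the 0.787th and 3.83rd percentile of mean signal among the genes tested. Their FK1706 means, each 7.11, would not pass the filter alone, nor would the normal mean of Bmal1, 7.24. No source used here gives the hour at which ganglia were taken.

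The promoters of Bmal1 and Nr1d1 are given because their products act on each other's genes. Capitals mark AGGTCA, the core of the element that Nr1d1 protein binds, in Bmal1, and CACGTG, the E-box that Clock and Bmal1 bind, in Nr1d1. Both strands were searched. AGGTCA stands in 16.2% and CACGTG in 6.42% of 33469 promoters. AGGTCA lies at -15 in Bmal1 (chr1:176766078-176766377, plus strand), and CACGTG at -191 in Nr1d1 (chr10:84229405-84229704, minus strand, 1 of 2 starts listed).
Bmal1: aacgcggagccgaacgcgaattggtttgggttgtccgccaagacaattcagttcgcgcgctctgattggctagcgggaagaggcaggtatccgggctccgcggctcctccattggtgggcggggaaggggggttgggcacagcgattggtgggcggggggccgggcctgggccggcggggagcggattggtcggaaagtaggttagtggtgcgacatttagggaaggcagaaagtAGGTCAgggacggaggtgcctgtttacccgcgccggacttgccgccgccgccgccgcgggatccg
Nr1d1: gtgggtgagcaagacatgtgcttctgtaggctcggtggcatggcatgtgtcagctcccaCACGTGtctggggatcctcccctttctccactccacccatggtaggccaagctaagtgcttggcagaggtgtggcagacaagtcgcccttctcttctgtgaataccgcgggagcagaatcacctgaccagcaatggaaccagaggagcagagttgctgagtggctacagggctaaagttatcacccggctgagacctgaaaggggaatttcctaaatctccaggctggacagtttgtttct

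Skeletal muscle genes, a tissue beside the ganglion, had the lowest median of the 39 lists with at least 5 tested genes, at -0.45. The median by week was -0.13, -0.71 and -0.56. Tnnc2, fast troponin C, was 7.21, 9.07 and 7.74 in normal pools and 6.87, 7.72 and 6.19 in FK1706 pools (-1.08, SE 0.438, limma adjusted p = 0.587). The FK1706 mean of Tnnc2, 6.93, would not pass the filter alone. Myl1, a fast myosin light chain, was 7.89, 9.48 and 8.23 against 7.38, 8.43 and 6.55 (-1.08, SE 0.460, limma adjusted p = 0.587). The normal pool of week 2 was the highest in both. Without it the median of skeletal muscle genes was -0.16. The summed signal of the 21 muscle genes was 6224 to 10377 in normal pools and 5605 to 7414 in FK1706 pools, which overlap, and its part in other differences was not tested.

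**Figure D4:**
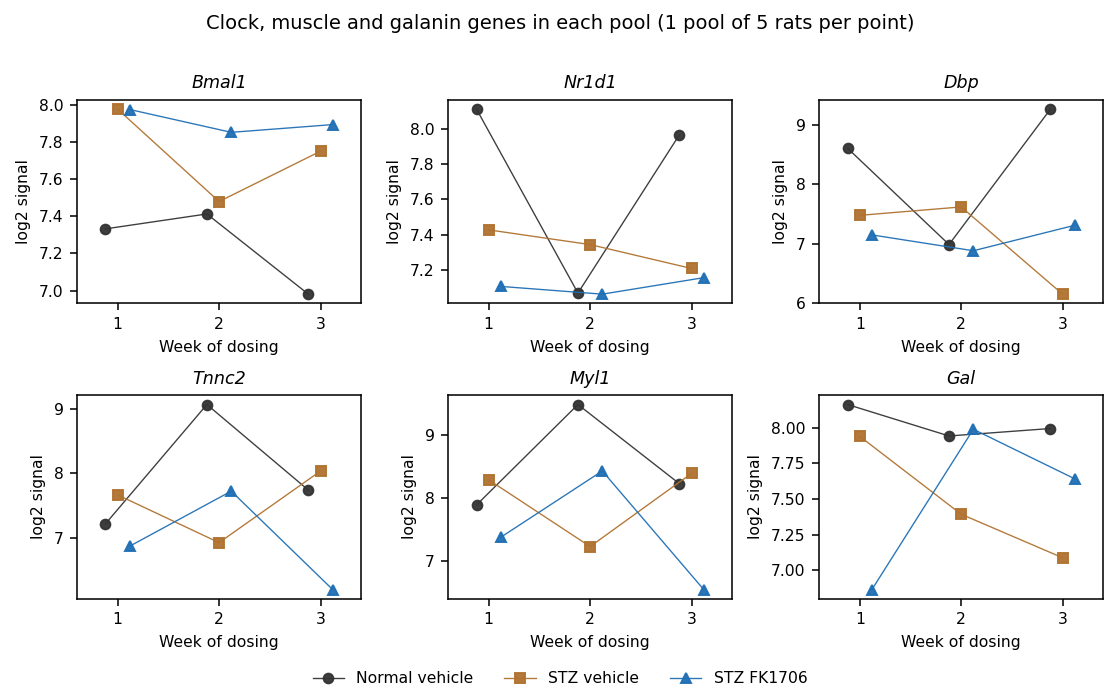
Log2 signal (vertical axes) of 6 genes against week of dosing (horizontal axes), 1 pool of 5 rats per point, for normal vehicle (circles), STZ vehicle (squares) and STZ FK1706 (triangles); lines join the weeks of a group. Normal pools of Nr1d1 and Dbp dip in week 2, Tnnc2 and Myl1 peak there in normal pools, and Gal is lowest under FK1706 in week 1.

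Antioxidant genes had 6 of 32 higher and 6 of 32 lower in every week (median 0.00), where 13.4% and 14.1% of all genes were. Gstm2, a glutathione transferase, was 8.85, 8.76 and 8.85 in normal pools and 9.02, 9.47 and 9.33 in FK1706 pools (0.45, SE 0.117, limma adjusted p = 0.293). Prdx6, a peroxiredoxin, was 9.31, 9.51 and 9.62 against 9.15, 9.01 and 9.22 (-0.35, SE 0.114, limma adjusted p = 0.457), and Nfe2l2, the master regulator of the antioxidant response, was -0.28 (SE 0.095). The groups did not overlap for these 3 genes, which were named by their moderated t in this same comparison. Genes of fat oxidation and PPAR targets had a median of 0.03 over 22 tested. Angptl4, which inhibits lipoprotein lipase, was 7.44, 7.78 and 7.19 against 7.98, 7.94 and 7.95 (0.48, SE 0.170, limma adjusted p = 0.515), and Ppard, a nuclear receptor that drives it, was 0.38 (SE 0.125). Serping1, the complement C1 inhibitor, differed by -0.12, -0.50 and -0.83 in weeks 1, 2 and 3 (mean -0.49, SE 0.132, limma adjusted p = 0.322). Mx2, induced by interferon, was 7.45, 8.02 and 8.12 against 7.40, 7.52 and 7.13 (-0.51, SE 0.184, limma adjusted p = 0.519). Mx2 was 7.71, 8.41 and 7.79 in STZ vehicle pools and differed by -0.62 from them (95% interval -1.03 to -0.22, limma unadjusted p = 0.00598, adjusted p = 0.999). It was 1 of 218 genes (3.12%) at an unadjusted p under 0.05 in that comparison. The FK1706 mean of Mx2, 7.35, lay close to the filter on low signal. A second Mx2 probe set, below that filter, differed from normal by -0.28.

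Over the 39 lists, 30 had a median within 0.1 of 0, 9 had one at or below -0.1 and 0 had one at or above 0.1. Not all of the 9 held under other settings. The median turned sign for clock genes (-0.28 to 0.07 over the settings) and for mast cell and neutrophil genes (-0.44 to 0.09), and it came within 0.1 of 0 for inflammation genes (-0.32 to -0.07) and myelinating Schwann cell genes (-0.33 to -0.09). Ribosomal, proteasome, respiratory chain, heat shock and glycolysis genes were among the 30. The glucose and thioredoxin list was the only one with a passing member.

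**Figure D5:**
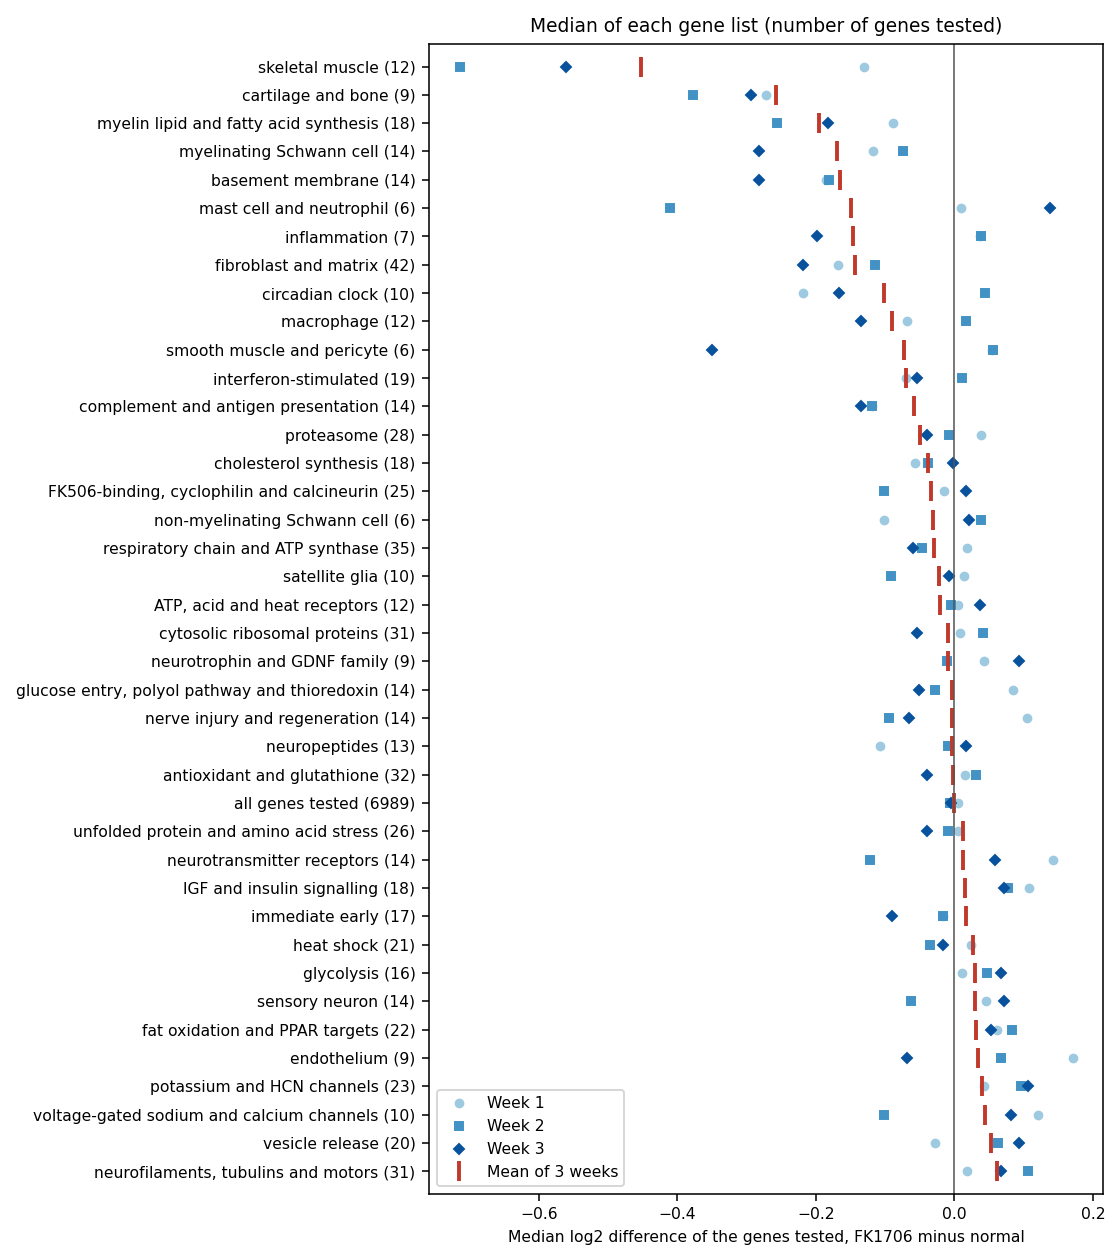
Median log2 difference of FK1706 minus normal (horizontal axis) for each gene list with at least 5 tested genes and for all genes (rows, number tested in brackets), by week as blue points and over the 3 weeks as a red bar. Skeletal muscle, cartilage and bone, and lipid synthesis lie farthest below 0, and no bar lies above 0.1.

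A gap that widened or narrowed over the weeks was tested as a difference of slopes. At an adjusted p under 0.05 there were 0 genes (limma, smallest adjusted p 0.765), and 335 genes (4.79%) at an unadjusted p under 0.05. Hars1, histidyl-tRNA synthetase, went from -0.87 in week 1 to 0.95 and 1.20, a slope of 1.04 a week. The slope of Hars1 was 0.46 without the normal pool of week 1 and 1.61 without that of week 3. Ptn, the growth factor pleiotrophin, went from -0.71 to 0.31 and 0.78, a slope of 0.74. The slope of Ptn was 0.32 and 1.17 without the same pools. The insulin genes were below the filter and not tested. Ins1 was 7.09, 6.91 and 7.17 in normal pools and 7.54, 7.34 and 7.73 in FK1706 pools, and Ins2 was 5.96, 6.17 and 6.63 against 5.67, 6.90 and 6.87.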

How the data were processed

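The files hold, for each probe set, a linear intensity deposited by the authors and computed with MAS5 (version not given) per the submitters' processing notes. These were not on a common level, so the authors' values were offset by 18.7 (their 10th percentile), taken to log2 and quantile-normalized. The brightest probe set stood for each gene, and genes under the 40th percentile of mean signal were left out. Names came from the platform annotation checked against GRCr8. Group and week (block) entered a linear model in limma 3.58.1 (R 4.3.3), with eBayes and a trend, over all 9 arrays with 4 residual degrees of freedom. Tests were two-sided with Benjamini-Hochberg adjustment over 6989 genes. The fit was tested on simulated data. Week pairs the arrays by design: residuals of FK1706 and normal arrays of 1 week correlated from -0.01 to 0.08.

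The members and the 42 gene lists were chosen with earlier results of these data known. Named genes are those that passed here or in STZ vehicle against normal, those 1.5-fold apart in every week, up to 5 members per list by moderated t, the 5 largest slopes, Ins1, Ins2, Fkbp1a and Fkbp4. Nrn1, Fasn and Acaca were added after their values were seen. Promoters from RefSeq matched 145 of 201 named genes. Of 15866 probe sets that are not controls, 312 carry several symbols and 2771 none, and these were not assigned to genes.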

Additional observations from a re-analysis of the deposited data

How the results depend on the processing

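The number of genes passing (1 as reported, Txnip) was 106 on the deposited scale, where 1 was higher and 105 lower, and 2 with probe sets averaged (Txnip and Col1a1). It was 0 with no filter (776 genes at an unadjusted p under 0.05, limma), 0 with a prior without a trend (539), and 0 when 9520 probe sets were tested one by one (777), an alternative chosen after seeing the data. With week left out as a replicate block it was 1. With only the 6 arrays compared it was 1, Ttc9b in place of Txnip, whose adjusted p was then 0.0642. It was 0 to 2 without 1 array in turn, and 0, 1 and 0 without weeks 1, 2 and 3, where the 1 was Col1a2. The other scales, offsets and the 60th percentile filter kept it at 1.

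The number of genes 1.5-fold apart in every week (2 as reported) was 12 on the deposited scale, 36 with no filter and 0 with the 60th percentile filter. It was 2 to 36 without 1 array in turn, and 36, 24 and 11 without weeks 1, 2 and 3, where fewer weeks had to agree. The slope count was 0 in each fit that could be run. It was not run for the 6 arrays alone, without the trend, without the block, without a week or for probe sets one by one. Fkbp1a, near 0, was 0.014 with a common trimmed mean and 0.0059 without week 2, and it ran from -0.049 to 0.022 without 1 array in turn. For other changes the cause was not tested. The number of arrays, 3 a group, limits what could pass.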
